A study of Homo sapiens with 4 samples.

Results

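Oxidative phosphorylation (OXPHOS) is carried out by the 5 complexes of the inner mitochondrial membrane, and the genes read here were those with a symbol beginning NDUF, UQCR, ATP5 or COX followed by a digit, or equal to SDHA, SDHB, SDHC or SDHD. Of the 198 probe sets that the platform annotation assigned to exactly 1 such symbol, all were kept, out of 54675 in the table. They covered 103 symbols, 57 of them with over 1 probe set and 46 with 1. The arrays compared 2 of CaSki cells given ZNF750 with 2 of CaSki cells given GFP, both introduced by lentivirus. CaSki is a human cervical squamous carcinoma line, ZNF750 is a zinc finger protein known from epidermal differentiation, and GFP was the control insert. Both groups were kept in the same medium, which the labels give as free of serum, a detail that the files cannot check. The duplicates are called biological, but the labels do not say how the cultures were made, so the p-values measure the spread between these arrays, and all cells are 1 line. RNA of a whole culture was measured, so less RNA per cell and fewer cells making it cannot be told apart.

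Complex I (NADH dehydrogenase, the NDUF genes) and complex II (succinate dehydrogenase, the SDH genes) pass electrons to ubiquinone, complex III (UQCR genes) passes them to cytochrome c and complex IV (COX genes) to oxygen. Complexes I, III and IV pump protons, and complex V, the ATP synthase (ATP5 genes), uses their return to make ATP. Most subunits are encoded in the nucleus, and a few core ones, such as COX1, COX2 and COX3, in mitochondrial DNA. The symbol pattern also takes in assembly factors, which build the complexes but are not part of them, and a few pseudogenes and noncoding RNAs named after their neighbour. Epithelial cells, squamous carcinoma lines included, express most of the subunits.

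Epithelial markers were bright on most of their probe sets, and some differed between the groups. The brightest probe sets of CDH1, EPCAM, KRT5, KRT8, KRT14, KRT18 and KRT19 had group means between 11.02 and 13.09 log2 units, whereas the probe sets of PTPRC, which marks leukocytes, read between 2.30 and 4.06 on all arrays. Of 9 epithelial probe sets, of 7 of the 8 genes listed, 3 were higher (KRT14 by 1.10, KRT5 by 0.24 and KRT19 by 0.16) and 1 lower (KRT18, -0.34; limma, adjusted p from 2.34e-05 to 0.0309). Among these 9, 2 lay below the median level of all probe sets. The listed gene without a probe set of 1 symbol was TP63. Of 26 fibroblast probe sets 19 lay below the median level of all probe sets and 7 above it, with COL1A1 (1556499_s_at) the highest at 8.55 and 8.37 in the ZNF750-labelled arrays, against 8.44 and 8.09 in the GFP arrays. Below that median lay 6 of 7 leukocyte and 6 of 8 endothelial probe sets. Of these 26 probe sets of 7 fibroblast genes, 7 of 3 leukocyte genes and 8 of 3 endothelial genes, 0 passed the test in either direction (limma; 3 of the fibroblast ones, all higher, and 0 of the others at an unadjusted p under 0.05). The introduced gene was not seen: its only probe set read 2.23 and 2.29 in the arrays labelled ZNF750, against 2.13 and 2.37 in the GFP arrays, and where its probes lie was not analysed here, so the introduction of ZNF750 is known from the labels alone and its arrays are called ZNF750-labelled. For ACTB, the control probe set at the 3′ end exceeded the one at the 5′ end, a gap that widens with RNA breakdown or short labelled products, by 3.76 and 3.35 in the ZNF750-labelled arrays, against 3.03 and 2.81 in the GFP arrays. For GAPDH this gap was 0.85 and 0.80 in the ZNF750-labelled arrays, against 0.63 and 0.61 in the GFP arrays. The control probe set of bioB read 8.94 and 9.12 in the ZNF750-labelled arrays, against 8.58 and 8.65 in the GFP arrays. The SD over all probe sets was 2.34 and 2.32 in the ZNF750-labelled arrays, against 2.39 and 2.37 in the GFP arrays. Each of these measures thus separated the groups, and their part in the differences given here was not tested.

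Most of the OXPHOS probe sets did not pass, and most of those that did were lower. In the ZNF750-labelled arrays, 32 of the 198 probe sets were lower and 7 higher, from 28 and 7 of the 103 symbols (limma, adjusted p under 0.05 over all 54613 probe sets tested). Over all probe sets, 7.19% were lower and 4.3% higher, so the 16.2% lower among OXPHOS probe sets lay above that level and the 3.54% higher did not. OXPHOS probe sets are bright, and bright ones pass more often: among the 27307 probe sets above the median level 13.6% were lower, against 19.8% of the 162 OXPHOS ones there. In 86 of the 198 OXPHOS probe sets both ZNF750-labelled arrays lay below both GFP arrays and in 43 above, where all probe sets had 24.3% below and 29.9% above. Above the median level these counts were 79 and 38 of the 162 OXPHOS probe sets, against 9828 and 7883 of the 27307. The median difference was -0.053 log2 units for OXPHOS probe sets and 0.026 for all, with OXPHOS values between -0.76 and 0.45. After cyclic loess the OXPHOS median was -0.027, and after centring on brighter probe sets -0.000166. Lower probe sets made up 82.1% of the OXPHOS calls and 62.6% of all calls, but 62.5% and 54.2% after cyclic loess and 65.9% and 46.2% after centring. The calls also rested on both arrays of each group and on the intensity trend of the variance prior: without either GFP array 0 OXPHOS probe sets passed, without ZNF750 replicate 1 or 2 only 4 and 2 passed, all lower, and without the trend 2. After cyclic loess and after centring all 39 kept their sign. Centring could turn none of them, as it moved every difference up alike, by less than the smallest called fall (ATP5MG 208746_x_at, -0.17). That fall was -0.098 after cyclic loess, so the kept signs are a weak check of direction.

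**Figure D1:**
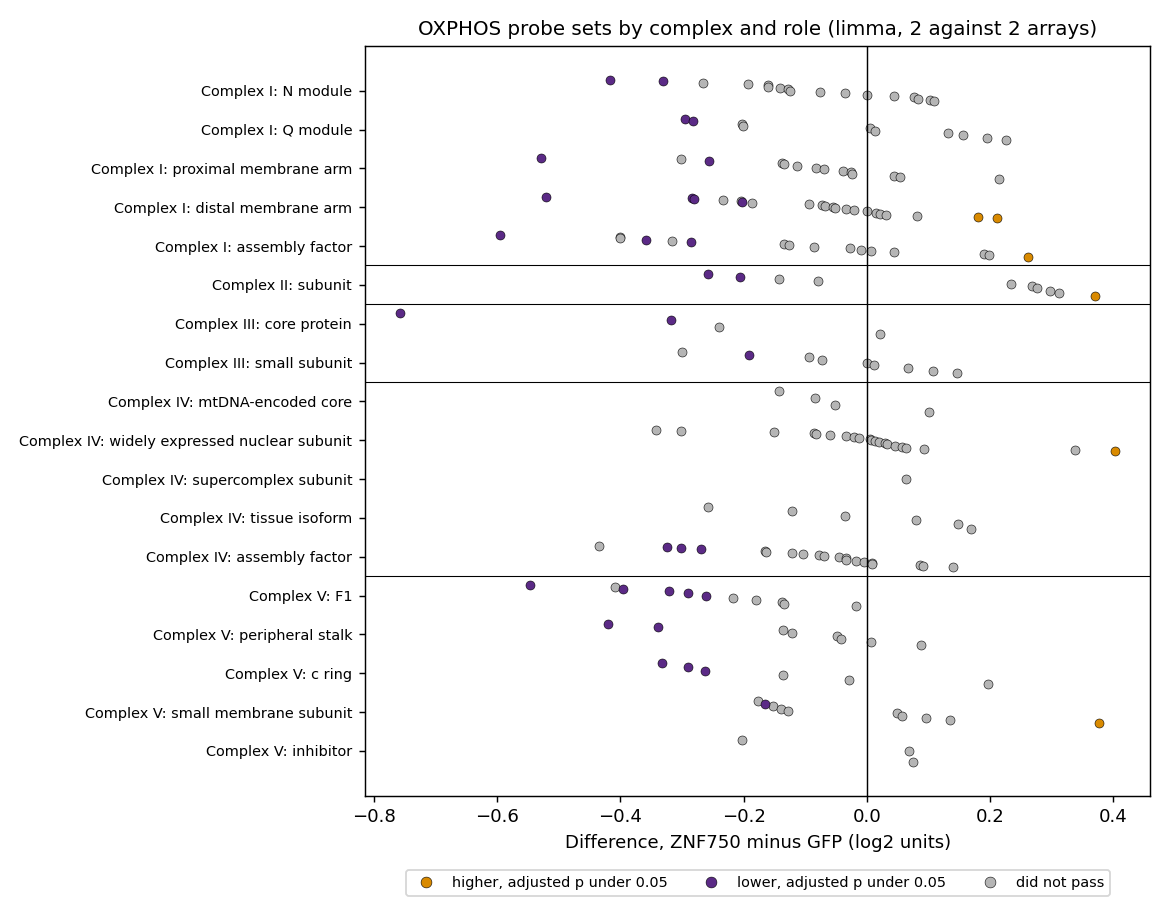
Each point is a coding OXPHOS probe set, placed by its log2 difference, ZNF750 minus GFP, and grouped by complex and role; 7 probe sets of noncoding or pseudogene symbols are not drawn. The F1 head of complex V lies wholly below 0, whereas the widely expressed nuclear subunits of complex IV range from -0.34 to 0.40, with 1 called higher.

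Nuclear OXPHOS genes are known targets of NRF1, of the ETS factor GABP and of YY1, so the letters these factors are known to bind were looked for in RefSeq promoters (250 bases before to 50 after the start, GRCh38.p14, both strands). Of the 103 symbols, 85 had a promoter there. GCGCATGCG (NRF1) was in 13 of 85 (15.3%) OXPHOS promoters and in 573 of 27305 (2.1%) of all promoters. CCGGAAG (ETS) was in 23 of 85 (27.1%) and in 2913 of 27305 (10.7%). AAGATGGC (YY1) was in 12 of 85 (14.1%) and in 828 of 27305 (3.03%). Among OXPHOS symbols with a probe set that fell the counts were 5 of 25 (20%) for NRF1, 5 of 25 (20%) for ETS and 6 of 25 (24%) for YY1, against 8 of 60 (13.3%), 18 of 60 (30%) and 6 of 60 (10%) among the others. The 25 include NDUFB8 and ATP5MG, which passed both ways. The 60 include the noncoding COX10-DT, NDUFV1-DT, NDUFV2-AS1 and NDUFB2-AS1. The promoters of COX10, among the 25, and COX10-DT overlap, so ETS and YY1 letters they share count on both sides. The ETS and YY1 letters can overlap by AAG, and a match is a description of letters, not of binding. The 120 bases before the start are printed for 5 genes: COX10, whose window holds the start of COX10-DT, SDHD and ATP5F1C, which fell and hold NRF1 letters, UQCRC2, the largest fall, with none of the 3 in this stretch, and COX6A1, which did not pass. The promoter of COX6A1 also holds NRF1 letters, at -219 to -211 from the start, outside the printed stretch. Capitals mark the motif letters.
COX10, chr17:14069384-14069503, plus strand: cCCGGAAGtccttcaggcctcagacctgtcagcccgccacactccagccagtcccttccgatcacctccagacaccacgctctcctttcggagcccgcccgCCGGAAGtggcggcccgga
SDHD, chr11:112086753-112086872, plus strand: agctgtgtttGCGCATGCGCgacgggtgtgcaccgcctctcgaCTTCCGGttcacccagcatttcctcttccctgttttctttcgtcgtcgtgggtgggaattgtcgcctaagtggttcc
ATP5F1C, chr10:7788057-7788176, plus strand: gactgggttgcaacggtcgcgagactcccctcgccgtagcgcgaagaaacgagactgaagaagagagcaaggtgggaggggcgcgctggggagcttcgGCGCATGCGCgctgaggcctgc
UQCRC2, chr16:21953241-21953360, plus strand: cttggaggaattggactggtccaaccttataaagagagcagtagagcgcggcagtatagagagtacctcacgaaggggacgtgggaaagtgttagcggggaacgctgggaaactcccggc
COX6A1, chr12:120437993-120438112, plus strand: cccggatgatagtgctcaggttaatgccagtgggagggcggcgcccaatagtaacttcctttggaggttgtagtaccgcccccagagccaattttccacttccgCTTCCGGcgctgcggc

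By probe set, complex V had the largest share of falls, 11 of its 39 (28.2%), with 1 higher and a median of -0.14. Over all probe sets 7.19% were lower, and 13.6% of those above the median level, where 35 of the 39 and all 11 falls lay. By symbol its share was not the largest: 8 of 19 held a fall, against 2 of 3 in complex II. With 1 probe set per gene 9 of 19 fell, against 2 of 3 in complex II and 3 of 6 in complex III. In the F1 head, which holds the catalytic sites, all 11 probe sets had negative differences and 5 passed. ATP5F1A, the alpha subunit, read 11.48 and 11.47 in the ZNF750-labelled arrays, against 12.10 and 11.95 in the GFP arrays (-0.55 ± 0.053, adjusted p = 0.00163), a 1.46-fold fall. The groups were far apart and the ZNF750-labelled arrays nearly equal. The second ATP5F1A probe set, 1569891_at, gave -0.22 (limma, adjusted p = 0.282) and did not pass. ATP5F1B, the catalytic beta subunit, was at 11.89 and 11.88 in the ZNF750-labelled arrays, against 12.16 and 12.13 in the GFP arrays (-0.26 ± 0.036, adjusted p = 0.00557). ATP5F1C, the central gamma subunit, was lower on 3 of 4 probe sets, and on the first (205711_x_at) it read 10.81 and 10.79 in the ZNF750-labelled arrays, against 11.24 and 11.14 in the GFP arrays (-0.40 ± 0.049, adjusted p = 0.00378). The other two gave -0.32 and -0.29, and the fourth -0.41 (adjusted p = 0.0698). The 3 that passed are _x_at probe sets, whose probes can hybridize to more than 1 transcript. ATP5F1D and ATP5F1E, the delta and epsilon subunits, did not pass, with differences from -0.18 to -0.017.

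The peripheral stalk, which holds the head still, and the c ring, the rotor, each held members that fell beside members that did not pass. ATP5PB, subunit b of the stalk, read 11.98 and 11.96 in the ZNF750-labelled arrays, against 12.45 and 12.34 in the GFP arrays on 211755_s_at (-0.42 ± 0.044, limma adjusted p = 0.00225). The second ATP5PB probe set gave -0.043 and did not pass. ATP5PO, the oligomycin sensitivity protein at the top of the stalk, read 12.20 and 12.13 in the ZNF750-labelled arrays, against 12.51 and 12.50 in the GFP arrays (-0.34 ± 0.039, adjusted p = 0.00296), and 216954_x_at showed 0.0069 (adjusted p = 0.970). Neither gene's groups overlapped on the probe set that passed. ATP5PD read 12.56 and 12.56 in the ZNF750-labelled arrays, against 12.46 and 12.48 in the GFP arrays (0.089 ± 0.034, adjusted p = 0.145; higher after cyclic loess, adjusted p = 0.0244) and ATP5PF had a difference of -0.14 (adjusted p = 0.0869), so neither passed. Subunit c is encoded by 3 genes that give the same mature protein. ATP5MC3 was lower on 2 of 3 probe sets, reading 11.64 and 11.69 in the ZNF750-labelled arrays, against 11.99 and 12.00 in the GFP arrays on 207507_s_at (-0.33 ± 0.038, adjusted p = 0.00297). ATP5MC2 was lower on 1 of 2, with 10.75 and 10.82 in the ZNF750-labelled arrays, against 11.02 and 11.08 in the GFP arrays (-0.26 ± 0.049, adjusted p = 0.0155), and its other probe set gave 0.20 (adjusted p = 0.348). ATP5MC1 read 10.53 and 10.54 in the ZNF750-labelled arrays, against 10.46 and 10.67 in the GFP arrays (-0.029 ± 0.071, adjusted p = 0.847), groups that overlapped. Whether ATP5MC1 differs from ATP5MC3 was not tested.

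Few probe sets of the small membrane subunits of complex V, and none of its inhibitor, passed. Of 10 probe sets of ATP5ME, ATP5MF, ATP5MG, ATP5MJ and ATP5MK, which pack against the rotor and link synthase dimers, 1 was higher and 1 lower, both of ATP5MG, subunit g. Each is 10% of these probe sets, against 4.3% higher and 7.19% lower over all probe sets. The ATP5MG probe set 208745_at read 9.50 and 9.40 in the ZNF750-labelled arrays, against 9.07 and 9.07 in the GFP arrays (0.38 ± 0.061, adjusted p = 0.00908). Its _x_at probe set 208746_x_at went the other way, with 12.02 and 12.02 in the ZNF750-labelled arrays, against 12.19 and 12.18 in the GFP arrays (-0.17 ± 0.035, adjusted p = 0.0248), a call lost after cyclic loess (adjusted p = 0.135) and centring (0.130). The remaining pair, 207573_x_at and 210453_x_at, gave -0.15 and -0.14 (adjusted p = 0.0532 and 0.0536), so no direction is given for the gene. ATP5MJ (202279_at, 0.13) and ATP5MK (0.096) did not pass here but were higher after cyclic loess (adjusted p = 0.0230 and 0.0146) and centring (0.0353 and 0.0483). ATP5IF1, which blocks the synthase from running backwards, gave 0.075, 0.068 and -0.20 on 3 probe sets, of which 0 passed (limma; 1 lower at an unadjusted p under 0.05).

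Complex III had 3 of 13 probe sets lower and 0 higher (limma; 2 higher at an unadjusted p under 0.05, and 2 after cyclic loess), and held the largest fall of all OXPHOS probe sets. Its 23.1% lower stands against 7.19% of all probe sets and 13.6% of those above the median level, where 11 of the 13 lay. UQCRC2, a core protein of the matrix side, read 9.03 and 8.90 in the ZNF750-labelled arrays, against 9.84 and 9.59 in the GFP arrays on 200883_at (-0.76 ± 0.091, adjusted p = 0.00346), a 1.69-fold fall. Its probe set 212600_s_at read 10.35 and 10.35 in the ZNF750-labelled arrays, against 10.80 and 10.54 in the GFP arrays (-0.32 ± 0.081, adjusted p = 0.0465), and this call was lost after cyclic loess (adjusted p = 0.0589) and with the replicate block (0.0633). On both probe sets each ZNF750-labelled array lay below each GFP array. The third, 241755_at, gave 0.021. UQCRC1, the other core protein, read 10.26 and 10.36 in the ZNF750-labelled arrays, against 10.48 and 10.62 in the GFP arrays (-0.24 ± 0.064, adjusted p = 0.0533) and did not pass. UQCR10, a small subunit, had 10.65 and 10.62 in the ZNF750-labelled arrays, against 10.81 and 10.84 in the GFP arrays (-0.19 ± 0.045, adjusted p = 0.0351), a call lost after cyclic loess (adjusted p = 0.133) and centring (0.108). UQCRB, which lies beside cytochrome b, gave 0.11, 0.15 and 0.067 on 3 probe sets and 0 on the fourth, and UQCRQ -0.073, none of which passed, but 205849_s_at and 209066_x_at of UQCRB were higher after cyclic loess (adjusted p = 0.0156 and 0.0421) and the first of them after centring (0.0462).

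**Figure D2:**
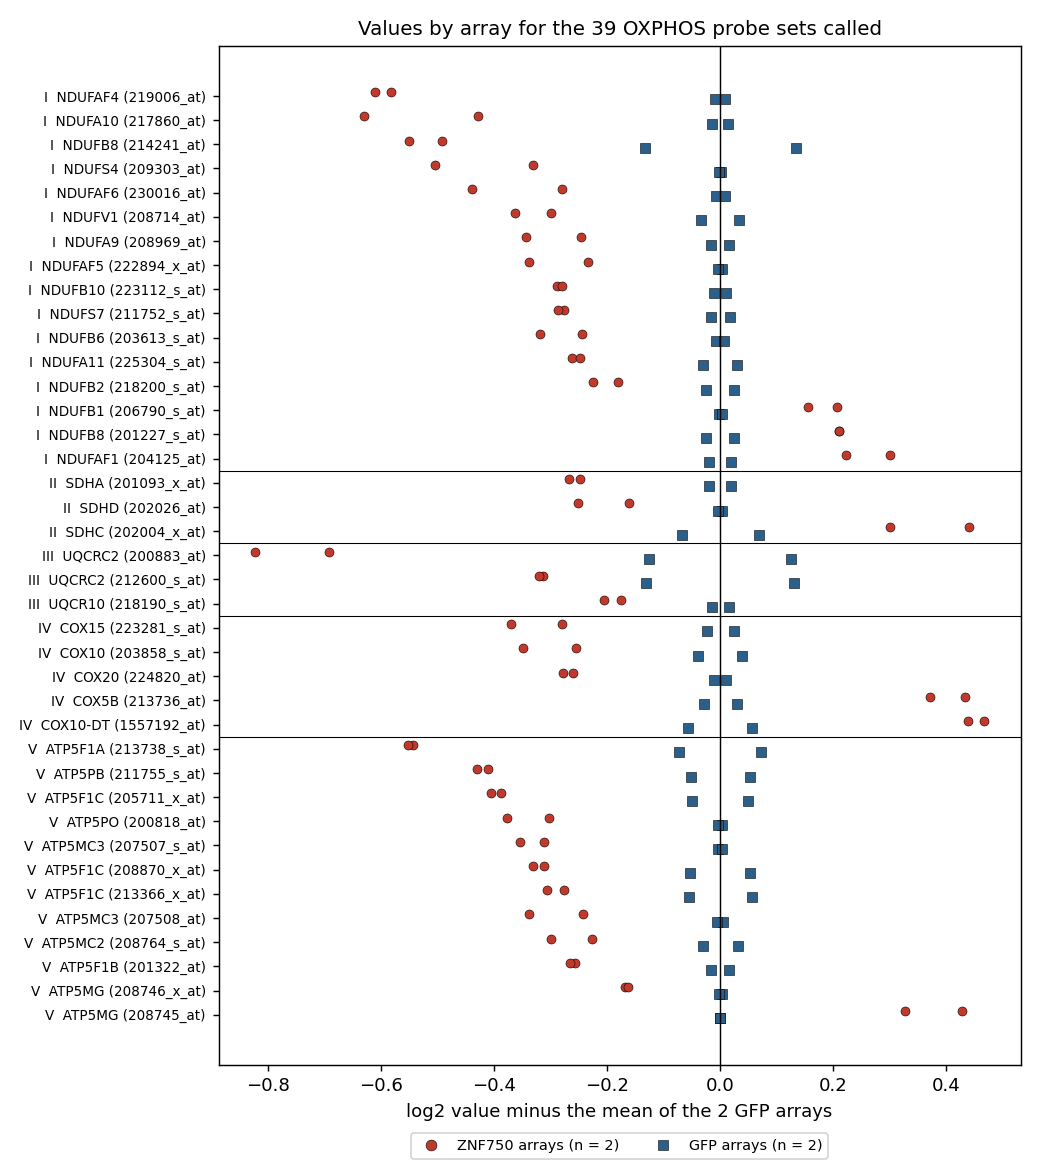
Each row is 1 of the 39 OXPHOS probe sets that passed, ordered by complex and difference; the x axis gives each array's log2 value minus the mean of the 2 GFP arrays. Red circles are ZNF750-labelled arrays and blue squares GFP arrays, and the groups do not overlap in any row.

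In complex I, 13 of 82 probe sets were lower (15.9%) and 3 higher (median -0.061). Over all probe sets 7.19% were lower, and 13.6% of those above the median level. Only 65 of the 82 lay above it, all 13 falls among them, so the 15.9% is not matched to the 13.6%. Each module of the enzyme held a fall, with shares from 11.8% in the N module to 20% in the Q module. Of the 17 probe sets of the N module, which takes electrons from NADH, 2 were lower. NDUFV1, which binds the flavin where NADH is oxidised, read 11.02 and 10.96 in the ZNF750-labelled arrays, against 11.28 and 11.35 in the GFP arrays (-0.33 ± 0.047, adjusted p = 0.00599). NDUFS4, an accessory subunit that stabilises the module, read 9.24 and 9.07 in the ZNF750-labelled arrays, against 9.58 and 9.57 in the GFP arrays (-0.42 ± 0.07, adjusted p = 0.0107). Both genes were lower in each ZNF750-labelled array than in either GFP array, while their second probe sets gave 0.044 and -0.16. The iron-sulfur subunits NDUFS1 and NDUFV2 did not pass: 203039_s_at of NDUFS1 gave -0.19 (adjusted p = 0.0652) and NDUFV2 -0.14 (adjusted p = 0.0939). NDUFS1 passed as lower with 1 probe set per gene (adjusted p = 0.0411) and with dim probe sets left out (0.0373).

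In the Q module, where ubiquinone is reduced, 2 of 10 probe sets were lower. NDUFS7, which carries the last iron-sulfur cluster, read 9.28 and 9.27 in the ZNF750-labelled arrays, against 9.54 and 9.57 in the GFP arrays (-0.28 ± 0.054, adjusted p = 0.0176), while its second probe set, 242168_at, had the opposite sign (0.19, adjusted p = 0.338). NDUFA9, an accessory subunit near the quinone site, read 9.65 and 9.75 in the ZNF750-labelled arrays, against 10.01 and 9.98 in the GFP arrays (-0.29 ± 0.056, adjusted p = 0.0172). NDUFS3, another core subunit, read 10.84 and 10.85 in the ZNF750-labelled arrays, against 10.85 and 10.84 in the GFP arrays (0.0049 ± 0.043, adjusted p = 0.965), so its arrays nearly coincided. In the membrane arm, which pumps protons, 6 of 35 probe sets were lower and 2 higher. Lower were 14.3% of the proximal and 19% of the distal probe sets, against 7.19% of all probe sets. NDUFA10, an accessory subunit of the proximal part, read 9.25 and 9.45 in the ZNF750-labelled arrays, against 9.87 and 9.90 in the GFP arrays (-0.53 ± 0.074, adjusted p = 0.00554). Its other 4 probe sets did not pass, at -0.30 to 0.21. NDUFA11 (225304_s_at, -0.26), NDUFB10 (223112_s_at, -0.28), NDUFB6 (203613_s_at, -0.28) and NDUFB2 (218200_s_at, -0.20), all accessory subunits, were lower on these probe sets (limma, adjusted p from 0.00807 to 0.0209). The NDUFB2 call was lost after cyclic loess (adjusted p = 0.0859) and centring (0.0834). The other probe sets of these genes did not pass. They gave -0.082 and -0.039 for NDUFA11, -0.051 for NDUFB10, -0.23 for NDUFB6, and -0.19 and 0.082 for NDUFB2. NDUFB1 was higher, reading 12.86 and 12.81 in the ZNF750-labelled arrays, against 12.66 and 12.66 in the GFP arrays (0.18 ± 0.034, limma adjusted p = 0.0166). Its second probe set, 243630_at, gave -0.022 and did not pass.

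NDUFB8, an accessory subunit of the distal arm, passed in both directions. Its probe set 201227_s_at read 11.95 and 11.95 in the ZNF750-labelled arrays, against 11.71 and 11.76 in the GFP arrays (0.21 ± 0.039, adjusted p = 0.0149), and 214241_at read 6.99 and 7.05 in the ZNF750-labelled arrays, against 7.67 and 7.40 in the GFP arrays (-0.52 ± 0.10, adjusted p = 0.0201). The third, 201226_at, read 10.93 and 10.99 in the ZNF750-labelled arrays, against 10.94 and 11.04 in the GFP arrays (-0.034 ± 0.053, adjusted p = 0.749). The groups did not overlap on the first pair and did on the third, so the probe sets of the gene disagree and no direction is given for it. Across the 57 genes with over 1 probe set, 0 had all of their probe sets pass in the same direction, 26 had some pass one way and none the other, NDUFB8 and ATP5MG passed both ways, and 29 had none that passed. In 30 of the 57 the differences had both signs.

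**Figure D3:**
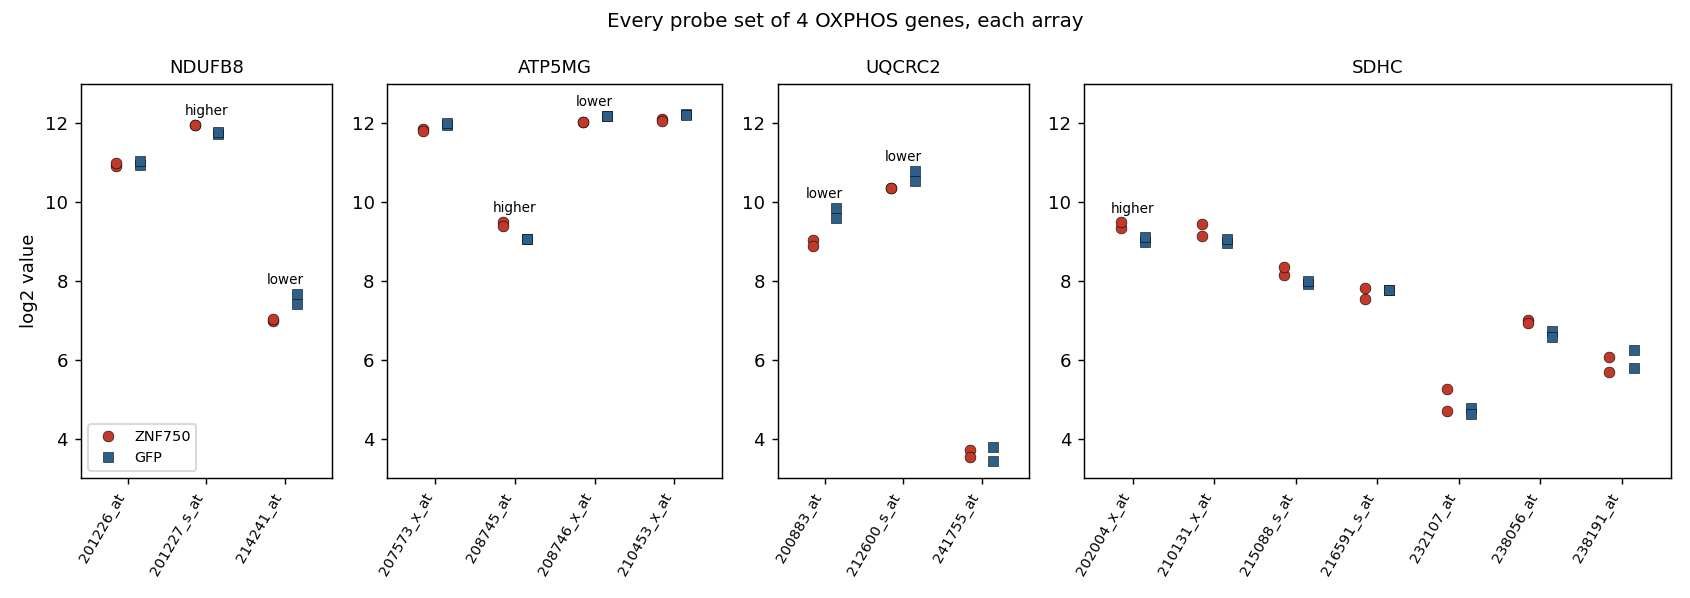
Log2 values on each array for every probe set of NDUFB8, ATP5MG, UQCRC2 and SDHC, with ZNF750-labelled arrays as red circles left of GFP arrays as blue squares; the words higher and lower mark the probe sets that passed. NDUFB8 and ATP5MG each have 1 of each, and 1 of the 7 SDHC probe sets passed.

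Of 36 probe sets of 17 assembly factors of complexes I and IV, 6 were lower and 1 higher (16.7% lower, against 16.8% of the 155 other coding probe sets, a difference that was not tested). Over all probe sets 7.19% were lower and 4.3% higher, against 2.78% higher among the 36. NDUFAF4, a complex I assembly factor, had the largest fall among these, reading 8.46 and 8.43 in the ZNF750-labelled arrays, against 9.03 and 9.05 in the GFP arrays (-0.60 ± 0.06, adjusted p = 0.00192). It was the only OXPHOS probe set that passed without ZNF750 replicate 1, without ZNF750 replicate 2 and without the intensity trend, and its second probe set gave -0.40 (adjusted p = 0.142). NDUFAF5, which modifies NDUFS7, was lower on 1 of 3 probe sets (-0.29, adjusted p = 0.0476), and NDUFAF6 on 1 of 2 (-0.36, adjusted p = 0.0425). The NDUFAF5 call was lost after cyclic loess (adjusted p = 0.0626), centring (0.0626) and with the replicate block (0.0548), and that of NDUFAF6 with the block (0.0588). NDUFAF1, which acts on the membrane arm, rose instead, with 8.84 and 8.76 in the ZNF750-labelled arrays, against 8.56 and 8.52 in the GFP arrays (0.26 ± 0.065, adjusted p = 0.0413). COX10 and COX15 make the heme A of cytochrome oxidase, and each was lower on 1 probe set. COX10 read 8.19 and 8.10 in the ZNF750-labelled arrays, against 8.49 and 8.41 in the GFP arrays (-0.30 ± 0.072, adjusted p = 0.0365), and COX15 7.18 and 7.27 in the ZNF750-labelled arrays, against 7.52 and 7.57 in the GFP arrays (-0.32 ± 0.08, adjusted p = 0.0406). The other COX10 probe set gave 0.14 and the other 3 of COX15 -0.07 to 0.0086. The COX15 call was lost after cyclic loess (adjusted p = 0.0553) and centring (0.0609). COX20, a chaperone of COX2, was lower on 224820_at (-0.27, adjusted p = 0.0174), whereas 224824_at gave -0.035 and did not pass.

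Among the subunits of complex IV themselves, 1 probe set passed. Of 21 probe sets of its 10 widely expressed nuclear subunits, 0 were lower (limma; 3 at an unadjusted p under 0.05) and 1 higher, with a median of 0.0067. COX4I1, the largest nuclear subunit, read 12.68 and 12.69 in the ZNF750-labelled arrays, against 12.68 and 12.67 in the GFP arrays on 202698_x_at (0.0056 ± 0.032, adjusted p = 0.945). Its 200086_s_at gave -0.013, whereas 213758_at (-0.30, adjusted p = 0.0695) and 227323_at (-0.34, adjusted p = 0.0989) had both ZNF750-labelled arrays below both GFP arrays. COX5A read 12.03 and 12.09 in the ZNF750-labelled arrays, against 12.19 and 12.23 in the GFP arrays on 203663_s_at (-0.15 ± 0.04, adjusted p = 0.0509) and did not pass, while its second probe set gave -0.02. COX6A1 (0.045), COX6B1 (0.093), COX6C (0.019), COX7A2 (0.013), COX7B (0.033) and COX8A (-0.06) did not pass either on the probe set with the highest level, with standard errors of 0.034 to 0.049 log2 units, nor did second probe sets of COX6A1 (0.064) and COX7B (0.34) or the 3 of COX7C (-0.086 to 0.057). COX5B, which binds zinc, was higher on 213736_at, with 8.39 and 8.45 in the ZNF750-labelled arrays, against 7.99 and 8.05 in the GFP arrays (0.40 ± 0.069, adjusted p = 0.0115), while its other 3 gave -0.082, -0.033 and 0.0067. COX7A2L, which joins complexes III and IV into supercomplexes, gave 0.064 (adjusted p = 0.555). Over all probe sets of complex IV, 3 were lower as reported, 4 with 1 probe set per gene, 5 with the replicate block and 6 with dim probe sets left out. The 3 are 5.56% of its probe sets, against 7.19% lower over all probe sets tested.

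Isoforms of complex IV known from muscle, lung or testis read between 2.70 and 6.21 log2 units on all arrays, and none passed. COX4I2 read 5.89 and 5.94 in the ZNF750-labelled arrays, against 6.14 and 6.21 in the GFP arrays (-0.26 ± 0.098, adjusted p = 0.144), and COX6A2, COX6B2, COX7A1, COX7B2 and COX8C gave 0.15, 0.17, 0.079, -0.12 and -0.035. COXFA4, long known as NDUFA4 and now counted with complex IV, is outside the symbol pattern and read 11.73 and 11.79 in the ZNF750-labelled arrays, against 11.74 and 11.74 in the GFP arrays (0.024 ± 0.04, adjusted p = 0.766), and its relative COXFA4L2 gave 0.10. The subunits encoded in mitochondrial DNA did not pass either: COX1 read 13.58 and 13.49 in the ZNF750-labelled arrays, against 13.71 and 13.65 in the GFP arrays (-0.14 ± 0.04, adjusted p = 0.0622), COX2 gave -0.084 and -0.051, and COX3 0.10. Over 10 probe sets of 7 mitochondrial genes, ND2, ND4, ND6 and ATP6 included, 0 passed (limma; 5 at an unadjusted p under 0.05), with a median of -0.063.

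Complex II, the succinate dehydrogenase, is read by 10 probe sets here, 7 of them of SDHC, so its median of 0.25 is mostly that of 1 gene and was -0.21 with 1 probe set per gene. Of the 10, 2 were lower (20%) and 1 higher (10%), against 7.19% and 4.3% of all probe sets. SDHA, the flavoprotein that oxidises succinate, was lower, reading 11.26 and 11.27 in the ZNF750-labelled arrays, against 11.50 and 11.54 in the GFP arrays (-0.26 ± 0.041, adjusted p = 0.00850) on an _x_at probe set. SDHD, a membrane anchor, read 10.06 and 10.15 in the ZNF750-labelled arrays, against 10.31 and 10.30 in the GFP arrays (-0.21 ± 0.053, adjusted p = 0.0457), a call lost after cyclic loess (adjusted p = 0.152), after centring (0.117), with the replicate block (0.0572) and without _s_at and _x_at probe sets (0.0535). Its second probe set, 215652_at, had the opposite sign (0.23, adjusted p = 0.272), with the ZNF750-labelled arrays above the GFP arrays. SDHC, the other anchor, was higher on 1 of 7 probe sets, with 9.34 and 9.48 in the ZNF750-labelled arrays, against 8.98 and 9.11 in the GFP arrays (0.37 ± 0.075, adjusted p = 0.0209). Of its other 6, 4 gave 0.27 to 0.31 and 2 gave -0.079 and -0.14, with adjusted p from 0.0765 to 0.690. After centring, 215088_s_at and 238056_at were higher as well (adjusted p = 0.0282 and 0.0256).

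COX10-DT, a noncoding RNA transcribed away from COX10, was higher while COX10 was lower. COX10-DT read 6.40 and 6.43 in the ZNF750-labelled arrays, against 6.02 and 5.90 in the GFP arrays (0.45 ± 0.098, adjusted p = 0.0262), the largest rise among OXPHOS-named probe sets. The RefSeq starts of the 2 genes lie with 45 bases between them on chromosome 17 (GRCh38.p14, 14069504 for COX10 and 14069458 for COX10-DT). NDUFV1 and NDUFV1-DT, with 229 bases between their starts on chromosome 11, are arranged the same way: NDUFV1-DT read 7.67 and 7.88 in the ZNF750-labelled arrays, against 7.30 and 7.56 in the GFP arrays (0.35 ± 0.11, adjusted p = 0.10) and did not pass except after centring (adjusted p = 0.0395), beside the fall of NDUFV1. The other 5 noncoding or pseudogene probe sets, of NDUFB2-AS1, NDUFV2-AS1, COX6A1P1 and ATP5MC2P1, did not pass, with differences from -0.28 to 0.09.

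Over 52 probe sets of 20 regulators of nuclear and mitochondrial OXPHOS transcription, 4 were lower (7.69%, against 7.19% of all probe sets) and 1 higher (1.92%, against 4.3%), with a median of -0.036. PPARGC1B, a coactivator of mitochondrial genes, read 7.07 and 6.94 in the ZNF750-labelled arrays, against 7.37 and 7.35 in the GFP arrays (-0.35 ± 0.085, adjusted p = 0.0379), and TFB2M, a mitochondrial transcription factor, 9.11 and 9.11 in the ZNF750-labelled arrays, against 9.46 and 9.35 in the GFP arrays (-0.30 ± 0.062, adjusted p = 0.0231). PPARGC1B and TFB2M were each lower on 1 of 4 probe sets. YY1 passed in both directions, at 0.22 on 200047_s_at and -0.22 on 224718_at, so no direction is given.

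Other mitochondrial genes were described beside the subunits. Over all probe sets 7.19% were lower and 4.3% higher, and of those above the median level 13.6% were lower and 6.7% higher. Of 35 probe sets of 16 genes of pyruvate oxidation and the TCA cycle, 12 were lower (34.3%) and 0 higher by limma, with a median of -0.22. At an unadjusted p under 0.05, 1 was higher. These genes feed electrons to complexes I and II. DLAT, a pyruvate dehydrogenase component lower on 2 of 3 probe sets, read 6.18 and 5.98 in the ZNF750-labelled arrays, against 6.91 and 6.74 in the GFP arrays (-0.74 ± 0.11, adjusted p = 0.00720). SUCLG2, a succinyl-CoA ligase subunit lower on 3 of 4, read 7.90 and 7.69 in the ZNF750-labelled arrays, against 8.54 and 8.50 in the GFP arrays (-0.73 ± 0.087, adjusted p = 0.00337), and citrate synthase (CS) gave -0.31 (adjusted p = 0.00885). Among 15 probe sets of carriers and outer membrane channels, 3 were lower (20%) and 0 higher by limma, with 0 higher also at an unadjusted p under 0.05. SLC25A3, which brings in the phosphate that complex V uses, read 12.69 and 12.69 in the ZNF750-labelled arrays, against 13.22 and 13.16 in the GFP arrays (-0.50 ± 0.034, adjusted p = 0.000511). The ADP/ATP carriers SLC25A5 (-0.13, adjusted p = 0.0943) and SLC25A4 (0.083, adjusted p = 0.394) did not pass, and the channels VDAC1 (-0.41) and VDAC3 (-0.39) were each lower on 1 of 3 probe sets. Of 53 protein import probe sets 13 were lower (24.5%) and 2 higher (3.77%) by limma. TOMM22 was lower on 2 of 3 (-0.50, adjusted p = 0.00380, on 217960_s_at) and HSPA9 on 1 of 4 (-0.55, adjusted p = 0.0230). TIMM8A was higher on 1 of 2 (0.71, adjusted p = 0.0117). CYC1, the cytochrome c1 of complex III, gave -0.20 (adjusted p = 0.0490), a call lost after cyclic loess (adjusted p = 0.175), and cytochrome c (CYCS) -0.066, which did not pass. Of 95 probe sets of 46 further assembly factors, 11 were lower (11.6%) and 7 higher. TTC19, which acts on complex III, read 9.25 and 9.18 in the ZNF750-labelled arrays, against 9.83 and 9.69 in the GFP arrays (-0.54 ± 0.066, adjusted p = 0.00350), COA1 gave -0.54 on 1 of 4 probe sets and SCO1, a copper carrier for COX2, -0.51. These lists share the shifts in ACTB, GAPDH, bioB and SD given above, whose part was not tested.

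**Figure D4:**
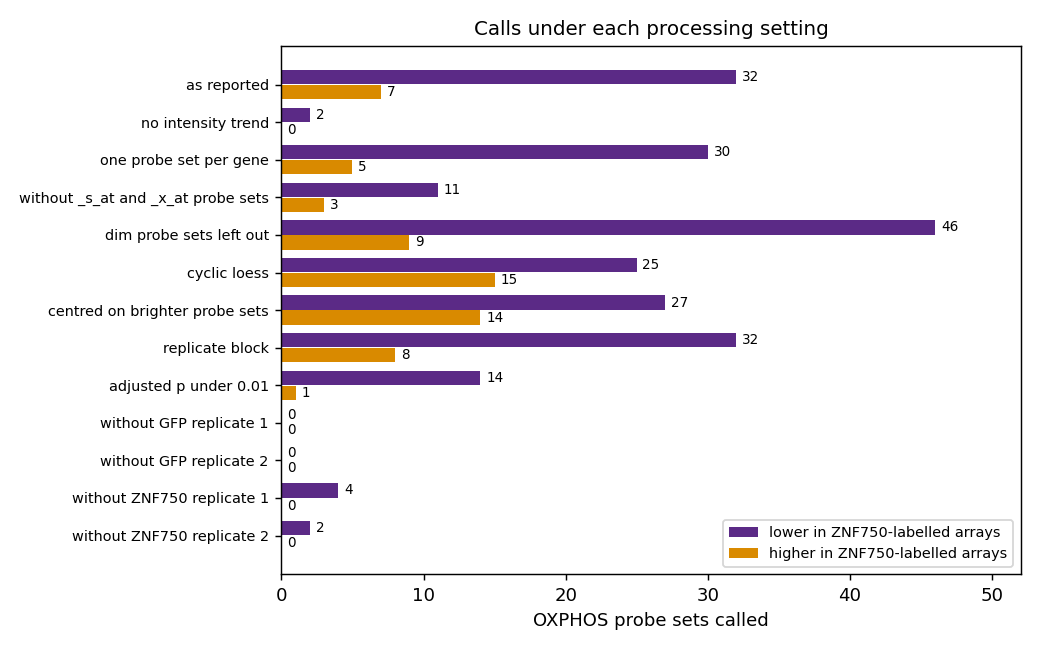
Bars give the number of the 198 OXPHOS probe sets called lower (purple) or higher (orange) in the ZNF750-labelled arrays under each processing setting, from 0. The 32 lower calls became 25 after cyclic loess, 2 without the intensity trend and 0 with either GFP array left out.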

How the data were processed

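RNA of 4 CaSki samples (2 ZNF750, 2 GFP) was hybridized to HG-U133 Plus 2.0 arrays, 1 colour each. The deposited values are log2 expression values per probe set, made with RMA per the submitters' processing notes, with version and settings not given in the sources used here. No further normalization was applied for the reported values. Of 54675 probe sets, 62 controls were left out and 54613 entered 1 linear model per probe set (limma 3.58.1, R 4.3.3, eBayes with an intensity trend, two-sided). P-values were adjusted over all of them by Benjamini and Hochberg, and passing means an adjusted p under 0.05. A difference is ZNF750 minus GFP in log2 units, with its standard error (±) and 2 arrays a group. An exact permutation test of 2 against 2 arrays cannot go below 0.333 and was not used. The number of arrays limits the precision.

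Symbols came from GEO's platform annotation, which gave 1 symbol for 41091 probe sets, several for 1801 and none for 11721. All 103 OXPHOS symbols matched RefSeq by Entrez ID. Probe sets ending in _s_at or _x_at can hybridize to more than 1 transcript, and where probes lie in a transcript was not analysed here, so levels of different probe sets were not compared. Named were, per complex and direction, up to 4 called probe sets with the largest difference, a fixed set of subunits and isoform families, and genes whose probe sets passed both ways. Other members were named by role after their values were seen. The members and lists were chosen with earlier results of these data known. The NRF1 letters searched are the factor's palindrome less its last base, a choice made after counts for the whole palindrome had been seen. Dim means a mean below the median of all probe sets. Alternatives were no trend, 1 probe set per gene, no _s_at or _x_at, no dim probe sets, cyclic loess, centring on the probe sets above the median, the replicate number as a block, a threshold of 0.01, and each array left out. In simulated data with the same arrays and 54613 probe sets, the fit recovered 30% of changes of 0.25 log2 units, 94% of 0.5 and 100% of 1, with 9 false among 171 calls. The simulated noise was independent and normal, its spread was set by the level alone, and all changes were put in probe sets above the median level. The simulation thus had the intensity trend built in and cannot test how far the calls rest on it.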

Additional observations from a re-analysis of the deposited data

How the results depend on the processing

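As reported, the calls were 7 higher and 32 lower OXPHOS probe sets, in complexes I to V 3, 1, 0, 2 and 1 higher and 13, 2, 3, 3 and 11 lower, and over all probe sets 2348 higher and 3927 lower. Without the intensity trend the counts were 0 higher and 2 lower, by complex 0, 0, 0, 0 and 0 higher and 1, 0, 1, 0 and 0 lower, with 520 higher and 754 lower over all. Cyclic loess gave 15 higher and 25 lower, by complex 5, 2, 2, 2 and 4 higher and 11, 1, 1, 2 and 10 lower, with 3141 higher and 3710 lower over all. Centring on brighter probe sets gave 14 higher and 27 lower, by complex 5, 3, 1, 2 and 3 higher and 12, 1, 2, 2 and 10 lower, with 4168 higher and 3585 lower over all, and an OXPHOS median of -0.000166. The median of complex IV, -0.027 as reported, was 0.014 after cyclic loess, 0.026 after centring and 0.0056 with 1 probe set per gene. With 1 probe set per gene, which tests fewer features, the counts were 5 higher and 30 lower, by complex 3, 1, 0, 1 and 0 higher and 12, 2, 3, 4 and 9 lower, with 1541 higher and 2013 lower over all. Without _s_at and _x_at probe sets, again fewer, they were 3 higher and 11 lower, by complex 0, 0, 0, 2 and 1 higher and 6, 0, 1, 1 and 3 lower, with 1230 higher and 1845 lower over all. With dim probe sets left out they were 9 higher and 46 lower, by complex 3, 3, 0, 2 and 1 higher and 18, 2, 5, 6 and 15 lower, with 2476 higher and 4731 lower over all. At an adjusted p under 0.01 they were 1 higher and 14 lower, by complex 0, 0, 0, 0 and 1 higher and 4, 1, 1, 0 and 8 lower, with 704 higher and 1474 lower over all. Of the 39 called probe sets, 17 remained without _s_at and _x_at probe sets, and 14 kept their call. With 1 probe set per gene 27 remained and all kept it. Apart from the stricter threshold, the cause of these changes was not tested.

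Leaving out 1 array gave 0 higher and 0 to 4 lower OXPHOS probe sets, with complex I at 0 to 2 lower, complex V at 0 to 2 lower, and 0 in every other count by complex. Over all probe sets it gave 8 to 267 higher and 1 to 661 lower. The 39 called probe sets then had adjusted p from 0.0942 to 0.267 without GFP replicate 1, 0.0720 to 0.231 without GFP replicate 2, 0.0421 to 0.209 without ZNF750 replicate 1 and 0.0387 to 0.244 without ZNF750 replicate 2. The lone array of a group was assumed to vary like the other group. Cyclic loess and centring turned no sign among the 39. Centring could turn none, as it moved every difference up alike, by less than the smallest called fall (ATP5MG 208746_x_at, -0.17). That fall was -0.098 after cyclic loess.

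The labels number the arrays 1 and 2 in both groups but do not say that a number is shared, and 2 pairs are too few to tell. The deviations of same-numbered arrays correlated at 0.134 over all probe sets, 0.260 over those above the median level and 0.243 over the OXPHOS ones. With the replicate block the counts were 8 higher and 32 lower for OXPHOS, by complex 4, 1, 0, 2 and 1 higher and 12, 1, 3, 5 and 11 lower, and 2002 higher and 3792 lower over all, and 35 of the 39 called probe sets were called again.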
